A study of Rattus norvegicus with 40 samples.

Results

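The 7 genes described here are immediate early genes, whose transcripts can be made within minutes of a stimulus because the factors that switch them on are already present in the cell. They were chosen by Ensembl gene ID as immediate early genes that tissue dissociation is also known to induce. The 7 are Fos (ENSRNOG00000008015), Jun (ENSRNOG00000026293), Junb (ENSRNOG00000042838), Egr1 (ENSRNOG00000019422), Atf3 (ENSRNOG00000003745), Dusp1 (ENSRNOG00000003977) and Nr4a1 (ENSRNOG00000007607), and all 7 were among the 32883 gene IDs of the count table. Their reads came from microglia, the macrophages that live in brain and spinal cord, and were counted in Sprague Dawley rats aged 8 weeks. Dams breathed room air (21% oxygen in both phases, intermittent normoxia) or air cycling between 10.5% and 21% oxygen (intermittent hypoxia) from gestational day 10 to day 21, for 8 hours a day with 15 cycles an hour, and all offspring were raised under normal housing. Sons and daughters of each exposure gave a library from the medulla and a library from cervical segments C3-C6, which makes 8 groups of 5 libraries: male normoxia, male hypoxia, female normoxia and female hypoxia, each in medulla and cord. The labels call the cells microglia because they were pulled out with an antibody to CD11b, a surface protein that other myeloid cells also carry. No marker gene could be checked against that name, because the IDs are not paired with symbols beyond these 7.

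Activity of MAP kinases, calcium and cyclic AMP signalling act through factors already bound at these genes, among them serum response factor at CArG boxes and CREB at cyclic AMP response elements. Fos, Jun and Junb encode subunits of the AP-1 transcription factor, and Atf3 encodes a stress-induced factor of the related ATF/CREB family. Egr1 encodes a zinc finger factor, Nr4a1 an orphan nuclear receptor, and Dusp1 a phosphatase that switches MAP kinases off again. The same genes are known to be induced while tissue is cut, digested and sorted, in microglia as in other cells. The labels give no time between death and lysis and no enzyme, and each region was isolated on its own, so a difference between regions and a difference in how each region was handled cannot be told apart.

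RefSeq promoter windows of build GRCr8, which run from 250 bases before to 50 after a gene's start, were matched by symbol for 4 of the 7 genes (Junb, Egr1, Nr4a1 and Dusp1). Windows with a match to a searched motif are shown because these genes are switched on through such elements, with matches in capitals. The Egr1 window (chr18:26736828-26737127, plus strand) holds 2 CArG boxes. That of Dusp1 (chr10:17184603-17184902, plus strand) holds a full cyclic AMP response element, and that of Nr4a1 (chr7:134259888-134260187, plus strand) holds a match to the EGR motif on the reverse strand.
Egr1: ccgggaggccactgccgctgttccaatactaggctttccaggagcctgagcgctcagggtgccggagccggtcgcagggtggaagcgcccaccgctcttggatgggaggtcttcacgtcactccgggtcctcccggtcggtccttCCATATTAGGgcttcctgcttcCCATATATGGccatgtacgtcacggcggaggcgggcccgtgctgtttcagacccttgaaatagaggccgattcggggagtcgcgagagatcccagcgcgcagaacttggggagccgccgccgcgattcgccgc
Dusp1: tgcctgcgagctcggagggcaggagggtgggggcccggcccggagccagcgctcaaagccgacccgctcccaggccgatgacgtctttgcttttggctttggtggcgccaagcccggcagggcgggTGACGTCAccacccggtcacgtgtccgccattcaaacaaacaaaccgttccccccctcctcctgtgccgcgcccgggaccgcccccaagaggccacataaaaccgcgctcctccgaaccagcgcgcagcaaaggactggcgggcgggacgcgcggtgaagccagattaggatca
Nr4a1: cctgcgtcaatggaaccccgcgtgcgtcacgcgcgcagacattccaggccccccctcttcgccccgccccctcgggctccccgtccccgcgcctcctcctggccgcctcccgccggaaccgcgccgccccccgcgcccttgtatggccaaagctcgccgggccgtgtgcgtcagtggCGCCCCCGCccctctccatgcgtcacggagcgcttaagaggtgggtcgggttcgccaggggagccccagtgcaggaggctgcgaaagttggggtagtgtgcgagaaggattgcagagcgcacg
Motifs were searched on both strands: TGACGTCA for the cyclic AMP response element, GCGNGGGCG for EGR, TGANTCA for AP-1, and the CArG box by its name. They did not overlap each other in these windows. Of all 33469 windows, 1.83% held the cyclic AMP response element, 1.64% a CArG box, 4.98% the EGR motif and 7.33% the AP-1 motif. The Junb window held none of the 4, and no window of the 4 genes held the AP-1 motif. A match is a run of letters and not a measured binding site.

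Depth was high for all 7 genes. Library totals ranged from 6061346 reads in 1 female hypoxia medulla library to 24039411 reads in 1 of the male normoxia medulla, and the lowest count of any of the 7 in any library was 119 reads, for Nr4a1. Group totals differed, from 10117717 ± 1552363 reads (SD, n = 5) in the male hypoxia cord to 20290188 ± 2495016 in the male normoxia medulla. Female hypoxia medulla replicate 3 stood apart, with the lowest total and counts in 13379 gene IDs against 17250 to 17850 in the other 4 of its group. Levels are given as CPM, the count scaled to a library total of 1000000 reads, which depends on gene length and is not compared between genes. In that library Fos was at 159 CPM, Egr1 at 219 and Nr4a1 at 19.6, each below every other medulla library (433, 413 and 52.1 CPM at the lowest). Jun in the same library was at 3512 CPM, above every other medulla library (2953 CPM at the highest).

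All 7 genes were higher in microglia of the cervical cord than in those of the medulla. Across all 40 libraries the 7 genes together took 0.384% to 0.895% of the reads in the medulla (median 0.603%, n = 20). In the cord they took 0.975% to 2.42% (median 1.51%, n = 20), so the ranges of this sum did not meet. Genes with the most reads weigh most in the sum, and the ranges of each gene alone did overlap. How often sums of other genes separate in this way was not computed. Fos, Jun, Junb, Atf3 and Egr1 were higher in the cord than in the medulla of the same animal in 20 of 20 animals, which was true of 0.479% of the 14832 genes tested. For Nr4a1 and Dusp1 this held in 19 of 20 animals, and the exception was the same, male normoxia animal 2 (ratios of 0.799 and 0.986). The share of all genes that reached 19 of 20 animals was not computed. Mean library totals were higher in the cord than in the medulla in female hypoxia animals and lower in the other 3 groups of animals, and the part of depth in the region difference was not tested. Reads from bulk cells do not tell more RNA in each cell from more cells that carry the RNA.

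**Figure D1:**
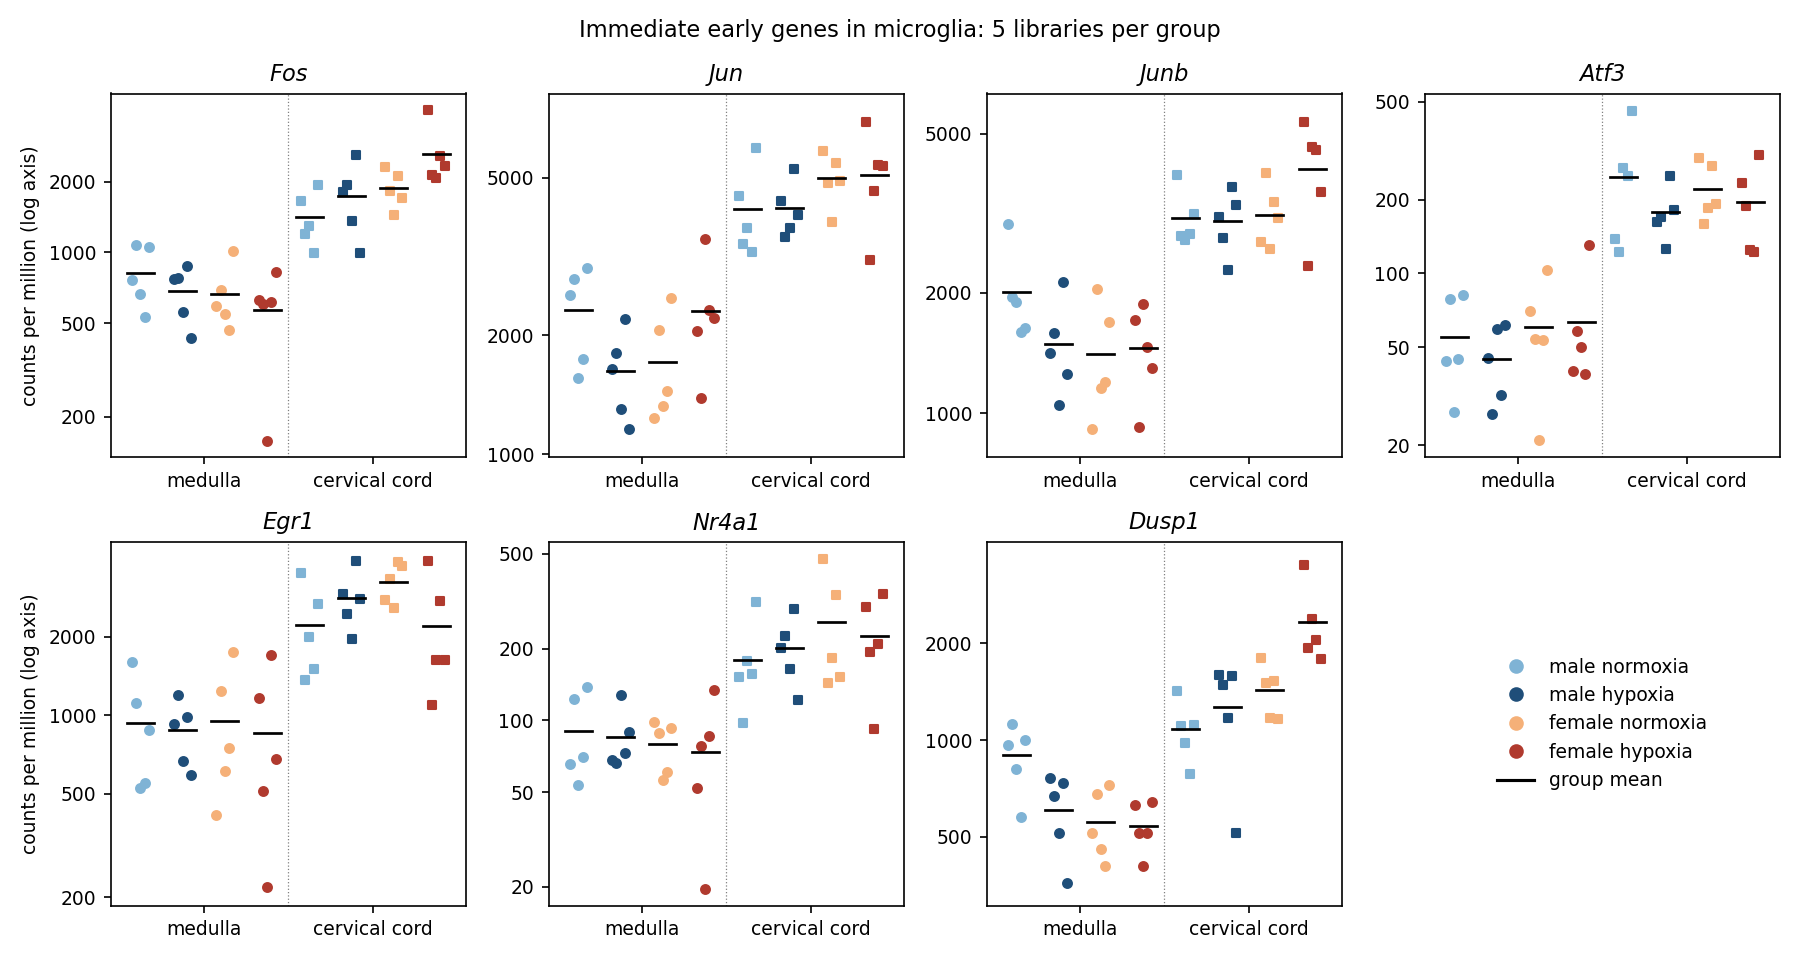
Level of each gene in CPM (log axis) in every library of the 8 groups, with circles for medulla, squares for cervical cord and a line at each group mean. For each of the 7 genes all 4 cord means lie above all 4 medulla means, and the lowest medulla points of Fos, Egr1 and Nr4a1 are female hypoxia medulla replicate 3.

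Among the AP-1 genes, Fos ran from 159 to 1076 CPM in the 20 medulla libraries (median 649) and from 995 to 4009 CPM in the 20 cord libraries (median 1873). The ranges met only at their ends, since 2 cord libraries lay below the 3 highest of the medulla. Jun ran from 1156 to 3512 CPM in the medulla (median 1923) and from 3092 to 6931 CPM in the cord (median 4562). Only the library that stood apart reached the cord range, as 19 of 20 medulla libraries lay below the lowest cord library. Junb ran from 913 to 2972 CPM in the medulla (median 1592) and from 2276 to 5342 CPM in the cord (median 3121). Again 19 of 20 medulla libraries were below all of the cord, here with male normoxia replicate 1 as the exception.

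Atf3, the stress-induced factor, had the largest cord-to-medulla ratio of the 7 genes by the median of the 20 animals, 3.41, with single animals from 1.56 to 9.90. It ran from 21.0 to 130 CPM in the medulla (median 51.8) and from 122 to 458 CPM in the cord (median 187), and 19 of 20 medulla libraries lay below all cord libraries. Egr1 ran from 219 to 1751 CPM in the medulla (median 814) and from 1094 to 3917 CPM in the cord (median 2703), with 15 of 20 cord libraries above the highest medulla value. Nr4a1 ran from 19.6 to 138 CPM in the medulla (median 75.4) and from 92.0 to 475 CPM in the cord (median 188), with 17 of 20 cord libraries above the highest medulla value. The phosphatase gene Dusp1 ran from 360 to 1122 CPM in the medulla (median 636) and from 513 to 3503 CPM in the cord (median 1493). Only 5 of 20 medulla libraries lay below its lowest cord library, male hypoxia replicate 5, the fewest of the 7 genes. By cord libraries above the highest medulla value, Dusp1 had 15 of 20, as Egr1 did, and Junb had the fewest, 12 of 20. Ranked by group mean, the 4 cord groups took the first 4 places for every gene. The share of all genes with that order, or with the step described next, was not computed. The step from the fourth to the fifth place was larger than the SD of either group for Fos, Jun, Junb, Atf3, Egr1 and Nr4a1, but not for Dusp1, whose male normoxia means were 1081 CPM in the cord and 897 CPM in the medulla. Within a region, neighbouring means differed by less than the larger SD except at 3 steps: female normoxia above male hypoxia for Jun in the cord, and for Dusp1 female hypoxia above female normoxia in the cord and male normoxia above male hypoxia in the medulla.

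**Figure D2:**
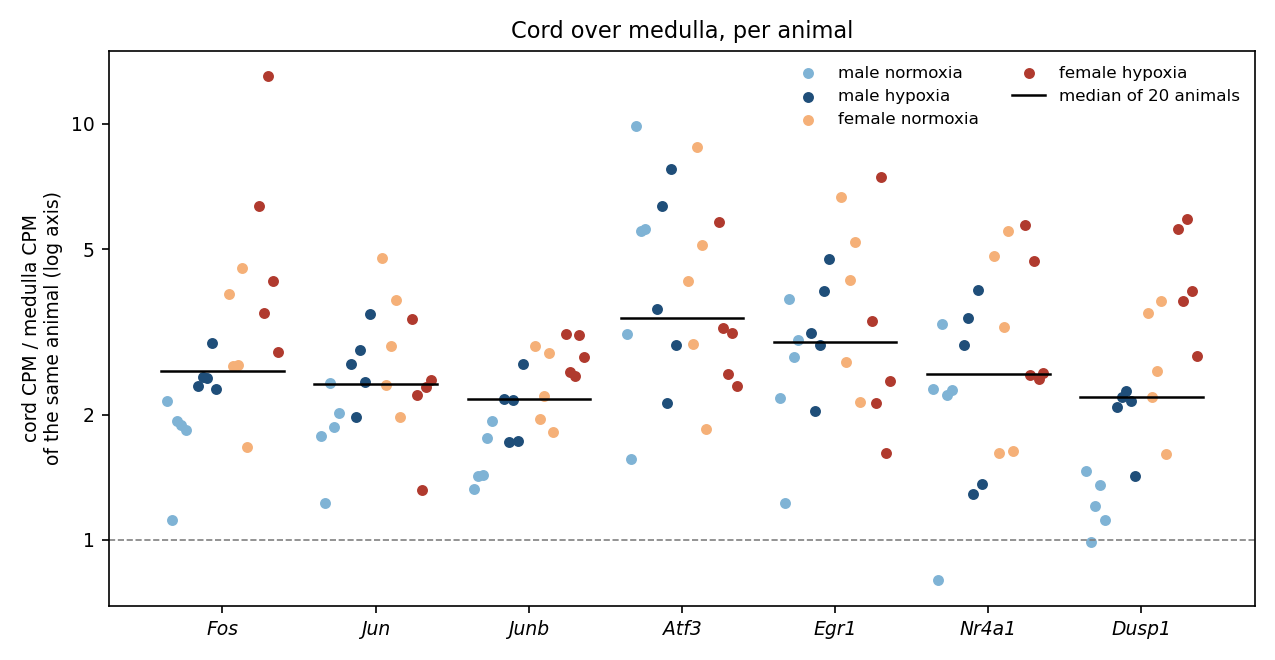
Cord CPM divided by medulla CPM of the same animal (log axis) for each gene, with 5 animals in each of 4 groups, a line at the median of all 20 animals and a dashed line at a ratio of 1. Only 1 male normoxia animal lies below 1, for Nr4a1 and Dusp1, and the male normoxia points of Dusp1 lie between 0.986 and 1.46.

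The region difference was tested in each sex and exposure (edgeR quasi-likelihood test, 40 libraries, n = 5 per group, Benjamini-Hochberg adjustment over 14832 genes). In male hypoxia, female normoxia and female hypoxia animals all 7 genes passed, with the cord higher. Of all genes tested, 2.69%, 2.13% and 12.7% were called higher in the cord there. This fit had no term for the animal, although both regions came from the same animals. With each animal as a block, all 7 stayed called in these groups of animals, where 448, 464 and 2253 of 14832 genes were called higher. In male normoxia animals 3 of 7 were called without the block, Jun, Atf3 and Egr1, where 2.37% of all genes were. These 3 were thus called higher in all 4 comparisons, as were 0.357% of all genes. In male normoxia animals Egr1 lost its call with no filter on low counts (edgeR adjusted p = 0.0568) and with library totals in place of TMM factors (0.0571). The median log2 fold change of the 7 genes was 0.87 in male normoxia, 1.37 in male hypoxia, 1.51 in female normoxia and 1.70 in female hypoxia animals. Over all genes tested, the median lay between -0.03 and -0.01. In male hypoxia, female normoxia and female hypoxia animals, 3.74%, 3.33% and 4.17% of all genes had a log2 fold change as high as the lowest of the 7. In male normoxia animals that share was 18.8%, with Dusp1 as the lowest.

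Female normoxia animals showed the cleanest separation. In these, the cord and medulla libraries of all 7 genes did not overlap, where 5.14% of all genes were higher in the cord without overlap. Jun, for example, was at 5865, 4866, 3867, 5446 and 4903 CPM in their cord libraries and at 1232, 2061, 1326, 1447 and 2489 CPM in the medulla of the same animals. Every cord library exceeded every medulla library (log2 fold change 1.51, SE 0.25, edgeR adjusted p = 0.000459). In male hypoxia animals 5 of 7 genes did not overlap (2.79% of all genes). The exceptions were Nr4a1 and Dusp1. With only the 10 libraries compared setting the spread, 6 of 7 genes were called in male hypoxia animals, where 2.55% of all genes were called higher. Dusp1 had an edgeR adjusted p of 0.0506 in that fit.

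In female hypoxia animals Fos, Junb and Dusp1 did not overlap between the regions, where 2.62% of all genes were higher in the cord without overlap. These 3 genes also had the lowest adjusted p of the 7. Dusp1 was at 3503, 1940, 2387, 2042 and 1787 CPM in the cord and at 628, 516, 405, 514 and 644 CPM in the medulla, so the lowest cord library, at 1787 CPM, lay well above the highest medulla library, at 644 CPM. Its log2 fold change was 2.23 (SE 0.25, edgeR adjusted p = 2.36e-07). Fos rose by 2.35 on the log2 scale (SE 0.30, edgeR adjusted p = 2.53e-06), and by 2.12 without female hypoxia medulla replicate 3 (adjusted p = 2.46e-06). Without that library all 7 genes remained called in this comparison, where 11.7% of all genes were called higher. When only the 10 libraries compared set the spread, where 0.487% of all genes were called higher, 3 of 7 genes were, Fos, Junb and Dusp1, and Jun, Atf3, Egr1 and Nr4a1 had edgeR adjusted p values of 0.104, 0.0758, 0.123 and 0.0955.

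In male normoxia animals the median difference of the 7 genes was the smallest of the 4 groups of animals, although the log2 fold change of Atf3 was its highest there. Atf3 was at 138, 123, 270, 249 and 458 CPM in their cord libraries and at 44.1, 78.6, 27.3, 44.98 and 81.9 CPM in the medulla, without overlap (log2 fold change 2.18, SE 0.39, edgeR adjusted p = 0.00281). Jun did not overlap either, at 3247 to 5950 CPM in the cord and 1562 to 2953 CPM in the medulla, and 3.90% of all genes were higher in the cord without overlap there. Dusp1 was at 1418, 1107, 982, 782 and 1118 CPM in the cord and at 969, 1122, 812, 579 and 1002 CPM in the medulla. These Dusp1 libraries lay over each other, with a log2 fold change of 0.29 (SE 0.24, edgeR adjusted p = 0.531). For Fos, Junb and Nr4a1 the log2 fold changes were 0.81, 0.64 and 1.02, with edgeR adjusted p values of 0.0747, 0.0866 and 0.0942.

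The count in male normoxia animals moved with the fit. With each animal as a block, where 2.8% of all genes were called higher, 6 of 7 genes were, all but Dusp1, at edgeR adjusted p values of 0.0250 for Fos, 0.00440 for Junb and 0.0435 for Nr4a1. The same 6 were called with female hypoxia medulla replicate 3, no library of these groups, left out of the shared spread, a fit that called 5.88% of all genes higher. Atf3 was called whichever male normoxia library was left out. Jun lost its call without medulla replicate 1, 3 or 4 or cord replicate 5 (edgeR adjusted p = 0.0606, 0.0875, 0.0711 and 0.117). Egr1 lost its call without medulla replicate 3, 4 or 5 (0.122, 0.105 and 0.0734) or cord replicate 1, 3, 4 or 5 (0.113, 0.0665, 0.0544 and 0.108). In male hypoxia animals only Nr4a1 lost its call in this way, without medulla replicate 1, 2, 4 or 5 (0.0657, 0.0595, 0.0827 and 0.0820) or cord replicate 1, 2 or 4 (0.0504, 0.0564 and 0.109).

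**Figure D3:**
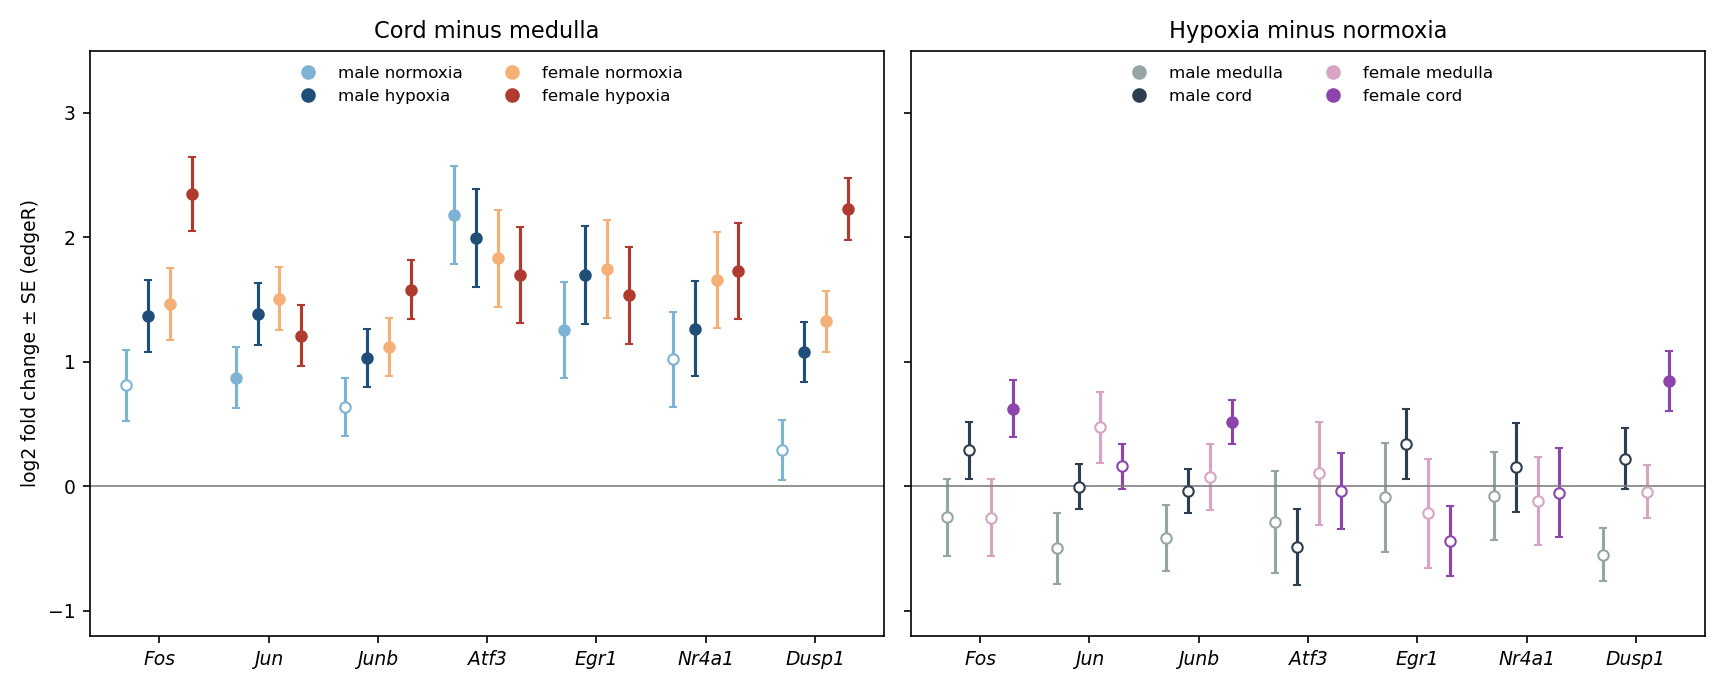
Log2 fold change with its standard error for each gene, cord minus medulla on the left and hypoxia minus normoxia on the right, with filled points where the edgeR adjusted p was under 0.05. The left panel holds 24 filled points, all above 0, and the right panel holds 3, for Fos, Junb and Dusp1 in the female cord.

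Whether the genes carried a trace of gestational exposure was asked in each sex and region. In the cord of females, Fos, Junb and Dusp1 were higher after hypoxia and the other 4 genes were not called. The 3 of 7 stand beside 18.2% of all 13593 genes called higher in that comparison, and 32.8% called in either direction. The median log2 fold change of the 7 genes was 0.16, against -0.01 for all genes tested. None of the 7 genes separated the groups without overlap, where 7.10% of all genes were higher after hypoxia and 15.5% lower in that way. Depth moved with exposure, at 17772758 ± 2821289 reads in hypoxia and 10537640 ± 1921869 in normoxia libraries (SD, n = 5), and its part in the result was not tested.

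Dusp1, the MAP kinase phosphatase gene, was at 3503, 1940, 2387, 2042 and 1787 CPM in hypoxia females and at 1803, 1506, 1171, 1529 and 1167 CPM in normoxia females. The ranges met at a single library, since 4 hypoxia values lay above all normoxia values and the fifth lay 16.3 CPM below the highest. Its log2 fold change was 0.85 (SE 0.24, edgeR adjusted p = 0.0111), and it stayed called when any library of the 2 groups was left out. Fos was at 4009, 2122, 2069, 2575 and 2339 CPM in hypoxia and at 2315, 1820, 1440, 2112 and 1697 CPM in normoxia females. The hypoxia group held the 3 highest Fos values and the groups overlapped (log2 fold change 0.62, SE 0.23, edgeR adjusted p = 0.0408). Junb was at 5342, 2336, 4642, 4540 and 3571 CPM in hypoxia and at 2677, 3996, 2574, 3371 and 3078 CPM in normoxia females. Its hypoxia group held both the 3 highest values and the lowest of the 10 libraries (log2 fold change 0.52, SE 0.18, edgeR adjusted p = 0.0294).

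The calls of Fos and Junb were lost in several fits with fewer libraries, in part with log2 fold changes as large as those above. Fos was not called without hypoxia replicate 1 or 4 (edgeR adjusted p = 0.133 and 0.0555) or normoxia replicate 2, 3 or 5 (0.0710, 0.103 and 0.0852), with log2 fold changes of 0.44 to 0.64. Junb was not called without hypoxia replicate 1, 3 or 4 (0.0785, 0.0747 and 0.0616) or normoxia replicate 1, 3 or 5 (0.0695, 0.0828 and 0.0589), with log2 fold changes of 0.42 to 0.51. With only the 10 libraries compared setting the spread it stayed at 0.52 (0.0617). RLE size factors kept both calls (0.0458 for Fos and 0.0331 for Junb). Scaling by library totals in place of TMM factors shifted the median log2 fold change of all genes in this comparison by -0.15, to -0.16. On that scale Dusp1 stood at 0.70 (edgeR adjusted p = 0.0290), Fos at 0.48 (0.107) and Junb at 0.38 (0.116).

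Egr1 had a lower mean after hypoxia in the same libraries but was not called. It was at 3903, 1094, 1630, 2741 and 1628 CPM in hypoxia and at 2764, 3324, 2576, 3875 and 3754 CPM in normoxia females. Hypoxia females held the 3 lowest Egr1 values and also the highest, in replicate 1 (log2 fold change -0.44, SE 0.28, edgeR adjusted p = 0.240). Without hypoxia replicate 1, Egr1 fell by 0.73 on the log2 scale and was called lower (edgeR adjusted p = 0.0380), as 14.6% of all genes were with all libraries. Of the 10 fits that each left out 1 library of these groups, only this 1 called Egr1. Jun, Atf3 and Nr4a1 had log2 fold changes of 0.16, -0.04 and -0.05 (edgeR adjusted p = 0.525, 0.942 and 0.931).

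A ratio of 2 genes within a library does not depend on the scaling, and it is given here for Fos and Egr1 as a description. Fos reads divided by Egr1 reads gave 1.03, 1.94, 1.27, 0.940 and 1.44 in the cord of hypoxia females and 0.837, 0.547, 0.559, 0.545 and 0.452 in that of normoxia females. All 5 hypoxia values lay above those of the other 15 cord libraries, which reached 0.881. In the medulla the same ratio was 0.362 to 1.22 in hypoxia and 0.561 to 1.44 in normoxia females, and the groups overlapped. For Dusp1 over Egr1 the female cord values were 0.745 to 1.77 in hypoxia and 0.311 to 0.652 in normoxia. These ratios were chosen after the values had been seen and carry no test. The share of other gene pairs whose ratios separate in this way was not computed.

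**Figure D4:**
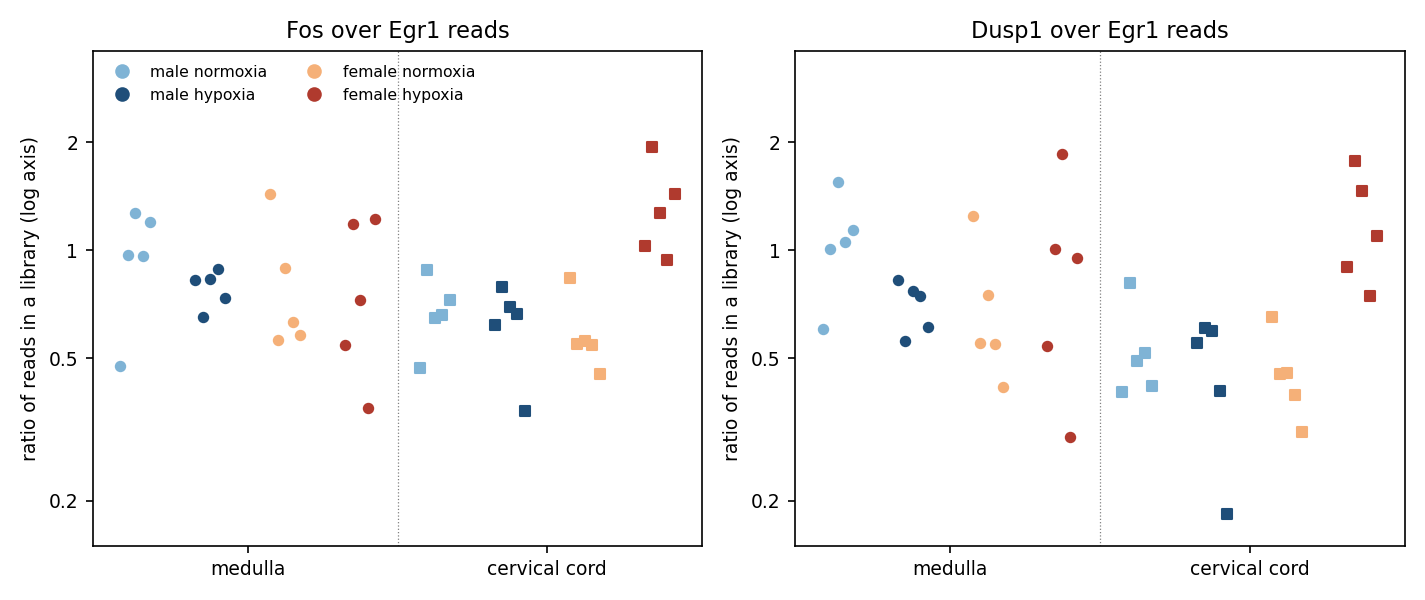
Reads of Fos (left) and of Dusp1 (right) divided by reads of Egr1 in each library (log axes), with circles for medulla and squares for cervical cord. The 5 female hypoxia cord libraries lie at 0.940 to 1.94 for Fos, above all other cord libraries, and at 0.745 to 1.77 for Dusp1, where 1 male normoxia cord library at 0.812 overlaps them.

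In the other 3 exposure comparisons none of the 7 genes was called. In the male cord 0.0% of 13593 genes were called, and the log2 fold changes of the 7 ran from -0.49 for Atf3 to 0.34 for Egr1 (edgeR adjusted p from 0.773 to 0.997). Atf3 was at 162, 170, 126, 249 and 181 CPM in hypoxia males and at 138, 123, 270, 249 and 458 CPM in normoxia males, with the highest and the lowest value both in normoxia. In the female medulla 0.0% of 14151 genes were called, and the 7 ran from -0.25 for Fos to 0.48 for Jun (adjusted p from 0.414 to 0.935). Without female hypoxia medulla replicate 3 they ran from -0.11 for Junb to 0.18 for Jun, with Fos at -0.01 (adjusted p from 0.844 to 0.993). In the male medulla, also with 0.0% called, the log2 fold changes ran from -0.55 for Dusp1 to -0.08 for Nr4a1, at an adjusted p of 1.00 for each. Dusp1 there was at 765, 672, 513, 733 and 360 CPM in hypoxia and at 969, 1122, 812, 579 and 1002 CPM in normoxia males. The 2 groups overlapped through normoxia replicate 4, the lowest of the normoxia libraries. At an unadjusted p under 0.05, the edgeR test counted 1 of the 7 genes in the male medulla and 0 in the male cord and the female medulla, beside 0.862%, 6.19% and 15.4% of all genes, and DESeq2 and limma voom called 0 of 7 in all 3.

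The exposure difference was compared between the sexes and between the regions. The interaction of sex and exposure called 0 of the 7 genes in the cord, where 23.2% of all genes were called, and 0 of 7 in the medulla, where 0.0% were. At an unadjusted p under 0.05 the edgeR test counted 1 of 7 in each region, beside 37.6% of all genes in the cord and 6.21% in the medulla, and DESeq2 and limma voom called 0. In the cord the interaction was 0.62 for Dusp1 (SE 0.34, edgeR adjusted p = 0.191), 0.56 for Junb (SE 0.25, adjusted p = 0.107) and -0.78 for Egr1 (SE 0.40, adjusted p = 0.157), so the exposure differences of these genes were not shown to differ between the sexes. Leaving out female hypoxia cord replicate 1 brought Egr1 to -1.07 (adjusted p = 0.0344), and leaving out replicate 2 brought Junb to 0.69 (adjusted p = 0.0359). Between the regions of females, the exposure differences of 0 of 7 genes were called apart, with 20.8% of all genes called. The interaction was 0.90 for Dusp1 (SE 0.34, edgeR adjusted p = 0.0552) and 0.89 for Fos (SE 0.40, adjusted p = 0.111). With each animal as a block, where 21.1% of all genes were called, both were, Dusp1 at 0.86 (adjusted p = 0.0134) and Fos at 0.97 (adjusted p = 0.0299). Without female hypoxia medulla replicate 3, where Fos was at its lowest, and without the block, the values were 0.83 (edgeR adjusted p = 0.0815) and 0.64 (0.196). Dusp1 was also called without female hypoxia medulla replicate 5 (0.0338) or cord replicate 5 (0.0406), or without female normoxia medulla replicate 3 or 4 (0.0492 and 0.0450) or cord replicate 1 (0.0422), and Fos without female hypoxia medulla replicate 5 (0.0401). DESeq2 called Dusp1 (adjusted p = 0.0461) and limma voom neither gene, and the edgeR test counted 2 of 7 at an unadjusted p under 0.05, a share near the 34.3% of all genes. In males that interaction called 0 of 7 genes (0.0% of all genes, 1 of 7 and 1.88% of all genes at an unadjusted p under 0.05, 0 of 7 with DESeq2 and limma voom).

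Females and males were compared within each exposure. The design took a male and a female from each litter, but the labels do not say which animals were littermates, so litter was not a term in the fit. In the hypoxia cord the same 3 genes as in the comparison by exposure, Fos, Junb and Dusp1, were called higher in females. Of all genes, 11.4% were called higher in females there, and 19.6% in either direction. The 2 comparisons share the female hypoxia cord libraries. Dusp1 was at 1599, 1481, 1169, 1581 and 513 CPM in the cord of hypoxia males, all below the lowest hypoxia female at 1787 CPM (log2 fold change 0.98, SE 0.24, edgeR adjusted p = 0.00909). It was the only one of the 7 without overlap, as were 3.41% of all genes, and it stayed called when any library of the 2 groups was left out. Fos and Junb had log2 fold changes of 0.69 and 0.54, at edgeR adjusted p values of 0.0379 and 0.0378. Fos lost its call without female replicate 1, 2 or 4 (0.101, 0.0551 and 0.0568) or male replicate 1, 3 or 5 (0.0697, 0.103 and 0.102), with log2 fold changes of 0.51 to 0.74. Junb lost it without female replicate 1, 3 or 4 (0.0834, 0.0930 and 0.0854) or male replicate 1, 2, 3 or 5 (0.0768, 0.0688, 0.121 and 0.0578), with log2 fold changes of 0.43 to 0.55. On library totals the median of all genes in this comparison shifted by -0.11, and Fos and Junb had adjusted p values of 0.0690 and 0.0968. With only the 10 libraries compared setting the spread, these were 0.0809 and 0.0944, and Dusp1 remained called under both.

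Under normoxia 0 of the 7 genes were called between the sexes in the cord, where 6.56% of all genes were called. The log2 fold changes there ran from -0.22 for Atf3 to 0.52 for Egr1 (edgeR adjusted p from 0.278 to 0.966). In the medulla 0 of 7 were called under normoxia and under hypoxia, with 0.0707% and 0.0777% of all genes called. Dusp1 lay lowest in the normoxia medulla, at -0.67 (SE 0.21, edgeR adjusted p = 1.00), with 514, 682, 460, 408 and 726 CPM in females beside 579 to 1122 CPM in males. At an unadjusted p under 0.05 the edgeR test counted 0, 1 and 0 of the 7 in the normoxia cord, normoxia medulla and hypoxia medulla, beside 23.5%, 4.15% and 14.3% of all genes, and DESeq2 and limma voom called 0 in each.

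Animals of the same group differed in these genes, and some genes differed together. Deviations of log2 CPM from the group mean were correlated over the 20 libraries of a region, each from its own animal, in 21 gene pairs per region, with 7 further correlations of a gene between the regions, 49 in all. Fos and Dusp1 moved together most closely of the pairs with Fos, with r = 0.73 and rho = 0.82 in the medulla and r = 0.84 and rho = 0.84 in the cord. The permutation p of r was 1e-05 in the medulla, the smallest these permutations can give, and 5e-05 in the cord, or 0.00049 and 0.00098 after adjustment. Without the 2 libraries farthest from the median of Fos, r was 0.85 in the medulla and 0.78 in the cord. Atf3 and Nr4a1 formed another close pair, with r = 0.63 and rho = 0.63 in the medulla (permutation p of r 0.00693, adjusted 0.0261) and r = 0.79 and rho = 0.82 in the cord (permutation p 6e-05, adjusted 0.00098). Without the 2 libraries farthest from the median of Atf3, r was 0.52 and 0.73. Libraries share their depth and scaling across genes, which such correlations include.

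Junb was correlated with Jun in both regions and with Egr1 in the cord. With Jun its r was 0.77 in the medulla (rho 0.75, permutation p 0.00062, adjusted 0.0038, r without 2 libraries 0.67) and 0.66 in the cord (rho 0.60, permutation p 0.00516, adjusted 0.0216, r without 2 libraries 0.62). With Egr1 in the cord its r was 0.81 (rho 0.79, permutation p 0.00018, adjusted 0.00221, r without 2 libraries 0.75). In the medulla the r of Junb with Egr1 was 0.39 (rho 0.48, permutation p 0.136, adjusted 0.230) with all libraries and 0.70 without female hypoxia medulla replicate 3 (rho 0.73, permutation p 0.00176, adjusted 0.00719, n = 19). With Atf3 its r was -0.10 in both regions, and with Nr4a1 it was -0.42 in the medulla and -0.08 in the cord, none with an adjusted p under 0.05. Fos and Jun were correlated in the cord (r = 0.75, rho = 0.77, permutation p 0.00042, adjusted 0.00294, r without 2 libraries 0.80). In the medulla their r was 0.09 with all libraries and 0.66 without female hypoxia medulla replicate 3 (rho 0.64, permutation p 0.00671, adjusted 0.0205, n = 19), where Fos was lowest and Jun highest. In all, 7 of 21 pairs in the medulla and 8 of 21 in the cord had an adjusted p of r under 0.05. For both r and rho, 6 and 8 had it. The share among pairs of other genes was not computed.

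**Figure D5:**
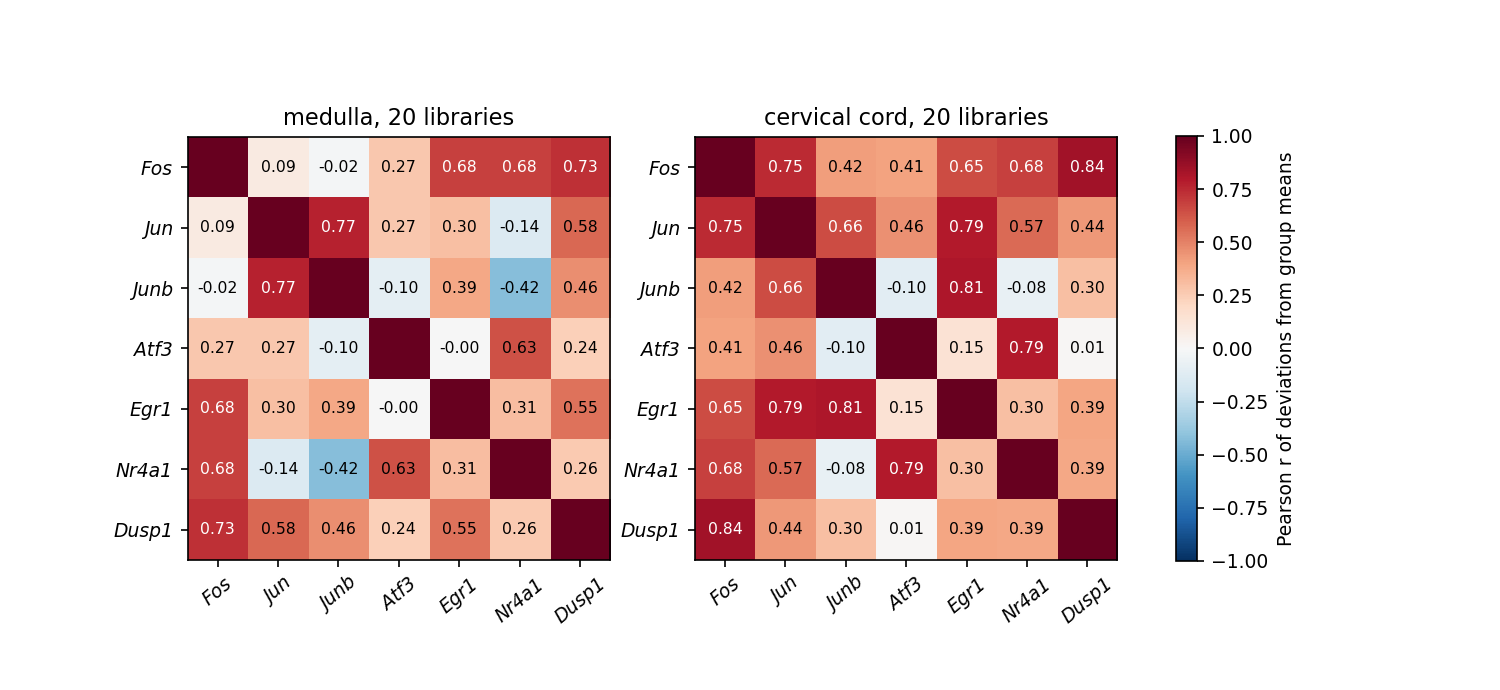
Pearson r between the 7 genes over the 20 medulla libraries (left) and the 20 cervical cord libraries (right), computed on deviations of log2 CPM from group means. Fos with Dusp1 and Atf3 with Nr4a1 are high in both panels, and Junb with Atf3 is at -0.10 in both.

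An animal's level in the medulla went with its level in the cord for Junb, with r = 0.79 and rho = 0.71 over 20 animals (permutation p of r 0.00037, adjusted 0.00294, r without 2 animals 0.76). Egr1 had r = 0.58 and rho = 0.59 (permutation p of r 0.0221, adjusted 0.0570, r without 2 animals 0.56). Its adjusted permutation p of rho was 0.0482. For Atf3 the values were r = 0.18 and rho = 0.12 (permutation p of r 0.497, adjusted 0.609, r without 2 animals -0.02). The other 4 genes had r from 0.33 to 0.58, with adjusted p values of 0.0534 and above. Without female hypoxia medulla replicate 3, Egr1 had r = 0.59 (rho 0.59, permutation p of r 0.0132, adjusted 0.0380, n = 19). Dusp1 then had r = 0.59 (rho 0.42, permutation p of r 0.0176, adjusted 0.0441), and r = 0.25 when 2 further animals farthest from the median were left out. Of the 14825 other genes tested over the 40 libraries, ENSRNOG00000058388 and ENSRNOG00000003300 had the pattern most like the mean deviation of the 7 genes, with r = 0.84 and 0.83. As a description, Fos itself had r = 0.82 with that mean, to which it contributes.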

How the data were processed

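Microglial libraries of 40 samples were analysed, 5 in each of 8 groups of sex, exposure and region. The authors deposited raw read counts per Ensembl gene ID. TopHat2 2.1, HTSeq, edgeR and build rn6 are named per the submitters' processing notes. The sources used here give no annotation release, strand setting or filter, and overlapping or antisense genes may share reads. The members and lists were chosen with earlier results of these data known. Symbols of the 7 members came with the rule that chose their IDs. The RefSeq table used here holds 0 rows with an Ensembl ID, so the fixed lists of further immediate early genes, upstream regulators and cell type markers could not be matched and were not tested. The rule for named genes took all 7 members and, without symbols, the 2 IDs most like them.

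CPM values are counts scaled to a library total of 1000000 reads. Tests used the edgeR 4.0.16 quasi-likelihood test in R 4.3.3 on the counts, with TMM factors and filterByExpr (minimum count 10), and Benjamini-Hochberg adjustment over all genes tested. Calls are adjusted p values under 0.05. The standard error (SE) of an edgeR log2 fold change was derived as its absolute value divided by the square root of the test's F statistic. The comparisons by exposure and by sex, and their interaction, were fitted on the 20 libraries of a region, and region on all 40. Alternatives were RLE factors, no filter, DESeq2 1.42.0, limma 3.58.1 voom with quality weights, only the groups compared, a block on replicate number or animal, and fits without each library in turn. Scaling by library totals was chosen after seeing the data. Correlations used deviations of log2 CPM (prior count 2) from group means and 100000 permutations within groups. The main fit was run on simulated counts for exposure in the female cord and region in male normoxia animals. This checked the direction and size of fold changes only. The simulated libraries were independent, so the pairing of regions within animals was not covered.

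Same-numbered libraries of the 2 regions are from 1 animal, per the design text and the labels. Such pairs deviated together in 20 of 20 animals (correlation 0.07 to 0.42 over all genes), and regions were also compared with a block on the animal. Numbers are not tied to litters in the labels. No comparison, between regions or within a region, had a correlation above 0.1 in every same-numbered pair. Same-numbered females and males had correlations of 0.0995 to 0.234 in the hypoxia cord and 0.059 to 0.351 in the normoxia cord. In the medulla these were -0.41 to 0.21 under hypoxia and -0.005 to 0.72 under normoxia. Whether the numbers mark litters was not settled. No 2 libraries of a group held identical values.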

Additional observations from a re-analysis of the deposited data

Results flagged for a closer look

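In 56 groups of 5 libraries (7 genes in 8 groups), 3 had a library whose gap to the nearest other library was large against the range of its group. By chance about 1 in 20 groups would show such a gap. Fos in female hypoxia cord replicate 1 was at 4009 CPM, with the other 4 libraries at 2069 to 2575 CPM. Junb in male normoxia medulla replicate 1 was at 2972 CPM, with the others at 1595 to 1957 CPM. Atf3 in female hypoxia medulla replicate 5 was at 130 CPM, with the others at 39.0 to 58.2 CPM.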

How the results depend on the processing

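The number of the 7 genes called was followed in 16 comparisons. In male normoxia animals 3 were called between the regions, where 2.37% of all genes were called higher in the cord. DESeq2 gave 5 (4.13% of all genes higher), limma voom with quality weights 6 (7.05%) and only the groups compared 5 (6.29%). The replicate block by animal gave 6 (2.8%), and the fit without female hypoxia medulla replicate 3 gave 6 (5.88%). No filter on low counts and library totals gave 2 each (0.929% and 1.77%). With only the groups compared, the region count of 7 fell to 3 in female hypoxia animals (0.487% of all genes higher). In male hypoxia animals the region count fell from 7 to 6 in that way (2.55%). In the exposure comparison of the female cord the count of 3 was 1 with library totals (1665 of 13593 genes called higher). With only the groups compared it was 2 (2311 of 12943). In the sex comparison of the hypoxia cord both of these fits gave 1 in place of 3. There 1019 of 13593 and 1012 of 12803 genes were called higher. For the interaction of region and exposure the female count of 0 (20.8% of all genes called) became 1 with DESeq2 (24.5%). It became 2 with the replicate block by animal (21.1%). The block by replicate number changed no count of the 7 genes in the comparisons by exposure, sex and their interaction, and the labels tie no number to a litter. Leaving out single libraries gave 1 to 6 genes for the region in male normoxia animals, 1 to 3 for exposure in the female cord, 1 to 3 for sex in the hypoxia cord, 0 to 1 for the interaction of sex and exposure in the cord and 0 to 2 for that of region and exposure in females. In the same order, these fits called 291 to 1937, 3639 to 4583, 1477 to 3139, 2569 to 3563 and 2236 to 4082 of all genes. The cause of the changes in the counts of the 7 was not tested, other than that fewer libraries enter such fits. No called gene changed its direction in any alternative. The correlations with an adjusted p under 0.05 numbered 16 of 49, and 21 of 49 when female hypoxia medulla replicate 3 was taken out. Counts of 119 reads or more make counting error small beside the spread between animals.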
